A study of Rattus norvegicus with 3 samples.

Results

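Transcripts of 10 genes of branched-chain amino acid catabolism were followed in the rat pineal gland, the small brain gland that makes melatonin at night. The 10 symbols (Bcat1, Bcat2, Bckdha, Bckdhb, Bckdk, Dbt, Dld, Ivd, Mccc1 and Mccc2) were chosen by their pathway, by symbol, with the FPKM of these 3 libraries known, Bcat1 among the most abundant. Their levels are therefore a description. All 10 were found, each as a single transcript entry, among 16629 genes and unnamed regions. Poly(A) RNA was sequenced from pineal glands of adult Sprague-Dawley rats at midnight, zeitgeber time 19 (hours after lights on), and at midday, zeitgeber time 7, in a cycle of 14 h light and 10 h dark. The remaining library pooled RNA in equal parts from 15 other tissues of adult rats of that strain at zeitgeber time 7: adrenal gland, cerebellum, cortex, heart, hindbrain, hypothalamus, kidney, liver, lung, midbrain, pituitary, retina, skeletal muscle, small intestine and spinal cord. How many animals gave each library is not stated in the labels. With 1 library per group, no difference below has a replicate check and no p-value is given.

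Leucine, isoleucine and valine are broken down by a shared opening pair of reactions. A branched-chain aminotransferase moves the amino group to 2-oxoglutarate, which gives glutamate and a branched-chain keto acid; Bcat1 encodes the cytosolic enzyme, known in rodents mainly from the nervous system and few other tissues, and Bcat2 the mitochondrial one of most organs. The branched-chain keto acid dehydrogenase complex in mitochondria then commits the carbon skeleton to oxidation. From there the 3 amino acids part ways, and the leucine branch continues with isovaleryl-CoA dehydrogenase (Ivd) and methylcrotonoyl-CoA carboxylase (Mccc1 and Mccc2).

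Levels are given as FPKM, that is, sequenced fragments per kilobase of transcript relative to the mapped total. Levels of different genes are set side by side on this scale, which relies on the transcript model used for each gene. Differences between libraries are log2 ratios of FPKM + 1, a scale that narrows the ratios of low genes. Genes entered a comparison with an FPKM of 1 or more in either library. From the lowest values of single-exon receptor genes, 1 FPKM was estimated to stand for 5.38 fragments per kb by night, 9.20 by day and 9.52 in the mixed tissues. Exact 95% bounds below treat each transcript as 1 kb long, since transcript lengths are not in the tables, and they cover counting error only, not differences between animals. Bounds on a log2 ratio are those of FPKM without the added 1. The labels fit the tissue: all 7 pinealocyte markers exceeded the mixed tissues at least 2-fold in both pineal libraries, and 10 markers of pooled organs summed to 1.39 FPKM by night and 0.896 by day, against 13096 in the mixed tissues.

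Bcat1 had the highest FPKM of the 10 genes in each library. It stood at 872 FPKM in night pineal (95% bounds 847 to 897), 656 in day pineal (640 to 673) and 252 in the mixed tissues (242 to 262). Those levels ranked 8 by night, 15 by day and 81 in the mixed tissues among the 16629 genes and regions. In bulk tissue, fewer cells of a type and less RNA per cell cannot be told apart. Bcat1 alone made up 79.0% of the summed FPKM of the 10 genes by night, 74.3% by day and 52.0% in the mixed tissues. The other 9 genes together came to nearly the same sum in each library, 232.0 FPKM by night, 227 by day and 233 in the mixed tissues. Within that sum Ivd and Bckdk were above the mixed tissues in both pineal libraries, and the other 7 genes were below them. The gene lies at chr4:182641517-182692917 on rn4.

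Its mitochondrial counterpart Bcat2 (chr1:96038287-96055622) had 6.03 FPKM in night pineal, 6.27 in day pineal and 15.2 in the mixed tissues. It was the lowest of the 10 genes in both pineal libraries, although by counting bounds (4.07 to 8.40 by night) it could not be told from Mccc2, Mccc1 and Dbt. The FPKM of Bcat1 was thus 144 times that of Bcat2 by night, 105 times by day and 16.6 times in the mixed tissues. Of the FPKM of both aminotransferases, Bcat1 held 99.3% by night, 99.1% by day and 94.3% in the mixed tissues. Against the mixed tissues the pair lay on opposite sides, with Bcat1 at 2.61-fold by day (log2 1.38) and Bcat2 at 0.412-fold (log2 -1.16).

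**Figure D1:**
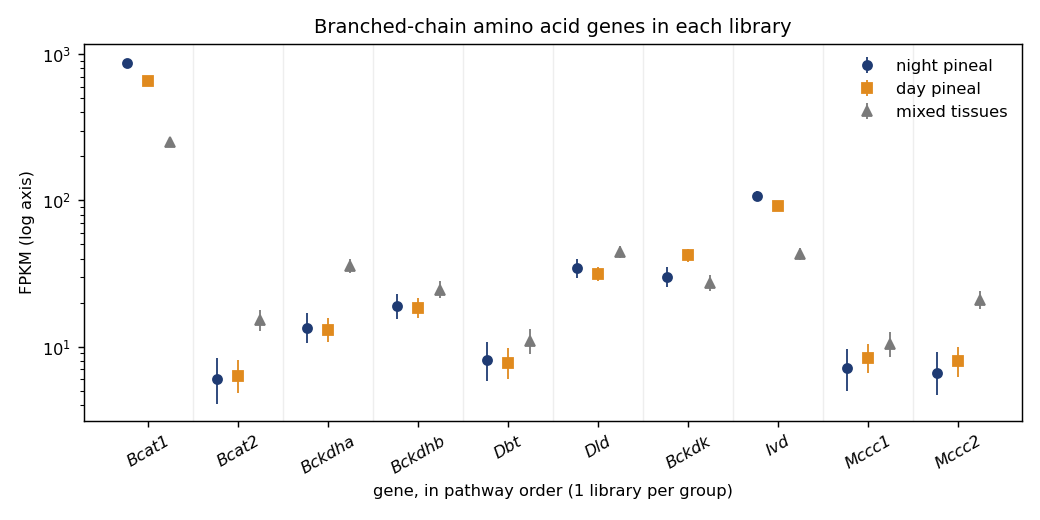
FPKM of the 10 genes (log axis) in night pineal, day pineal and mixed tissues, 1 library each, in pathway order. Bars are exact 95% counting bounds for a transcript of 1 kb. Bcat1 lies above every other member in each library, at 872, 656 and 252 FPKM, and Bcat2 is at 6.03, 6.27 and 15.2.

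The sequences before the starts of the aminotransferase genes and of Ivd are given as context for these levels: Bcat1 and Ivd are the members at least 2-fold above the mixed tissues, and Bcat2 is the low partner of Bcat1. They are the 250 bases before each annotated start, from RefSeq on GRCr8, a different build from that of the deposited tables. Bcat1 has 2 listed starts 33080 bp apart, with windows at chr4:179777289-179777538, minus strand, and chr4:179744209-179744458, minus strand. Its single table entry does not tell which start was used. The Bcat2 window is chr1:105178889-105179138, plus strand, and that of Ivd is chr3:126305334-126305583, plus strand. Capitals mark a match to any of the searched motifs.
Bcat1, upstream start: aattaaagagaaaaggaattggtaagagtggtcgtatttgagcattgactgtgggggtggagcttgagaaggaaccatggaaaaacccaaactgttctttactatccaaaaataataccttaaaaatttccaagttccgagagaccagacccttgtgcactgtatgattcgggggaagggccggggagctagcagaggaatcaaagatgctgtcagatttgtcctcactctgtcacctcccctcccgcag
Bcat1, downstream start: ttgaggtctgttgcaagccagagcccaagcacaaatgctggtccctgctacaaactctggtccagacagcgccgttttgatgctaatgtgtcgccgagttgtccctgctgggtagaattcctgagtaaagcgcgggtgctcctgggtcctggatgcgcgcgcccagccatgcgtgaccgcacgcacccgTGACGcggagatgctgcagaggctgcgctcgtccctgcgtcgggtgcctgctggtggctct
Bcat2: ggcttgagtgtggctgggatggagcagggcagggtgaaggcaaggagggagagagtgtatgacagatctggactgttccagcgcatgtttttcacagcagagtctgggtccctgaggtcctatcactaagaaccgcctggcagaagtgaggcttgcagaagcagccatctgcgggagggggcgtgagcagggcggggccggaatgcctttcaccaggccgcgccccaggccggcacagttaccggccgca
Ivd: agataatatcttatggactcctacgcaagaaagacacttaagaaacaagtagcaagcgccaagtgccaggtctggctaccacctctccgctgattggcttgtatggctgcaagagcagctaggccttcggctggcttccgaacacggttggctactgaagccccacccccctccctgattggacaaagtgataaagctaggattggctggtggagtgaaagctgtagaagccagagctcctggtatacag

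The motifs searched on both strands were the cAMP response element TGACGTCA and its shorter form TGACG, which lies within it, the E-box CACGTG bound by clock factors, and TAATCC, the core bound by the pineal homeobox factor Crx. Windows were available for 8 of the 10 genes, 9 windows in all. TGACG was found in the downstream Bcat1 window, 61 to 57 bases before the start, and in that of Dld, 22 to 18 bases before it, compared with 18.2% of all 33469 promoter windows. TGACGTCA (1.59% of all windows), CACGTG (5.59%) and TAATCC (6.34%) were not among the letters of these 9 windows. The downstream Bcat1 window had 62.0% G + C and 19 CpG, and the upstream one 46.0% and 5, against medians of 51.2% and 5 over all windows. A match is a description of letters and not of a bound site.

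The night against day comparison sets midnight beside midday. These hours alone cannot show how far a transcript follows the daily cycle of the gland. All 10 genes lay within 2-fold, 0 higher and 0 lower, where 4.18% of 9826 genes were past 2-fold on the night side and 2.11% on the day side. The median log2 ratio was 0.04 over the 10 genes and -0.11 over all genes compared. Bcat1 had the highest ratio of the 10, 1.33-fold (log2 0.41, bounds 0.35 to 0.46), and 87.7% of all genes lay below it. Next came Ivd, at 107 FPKM in night pineal and 91.5 in day pineal (log2 0.23, bounds 0.08 to 0.39). Bckdk, the kinase that inactivates the keto acid dehydrogenase complex, had 29.99 FPKM by night and 42.0 by day, the lowest ratio of the 10 (log2 -0.47, bounds -0.76 to -0.22), with 16.4% of all genes below it. These 3 genes are the ones whose counting bounds leave out 0, and also the ones outside the interquartile range of all genes, -0.35 to 0.15.

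For the remaining 7 genes the counting bounds of the night over day ratio include 0. Bcat2 was at log2 -0.05. The subunits of the dehydrogenase complex ran from 0.04 for Bckdhb to 0.13 for Dld. Mccc1 and Mccc2, the subunits of the carboxylase, had log2 ratios of -0.21 and -0.24. For the lower genes the bounds are wide, such as -0.86 to 0.35 for Mccc2. On the assumed length of 1 kb, counting error alone could hide a difference of up to about that size. Differences between animals are not in these bounds.

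**Figure D2:**
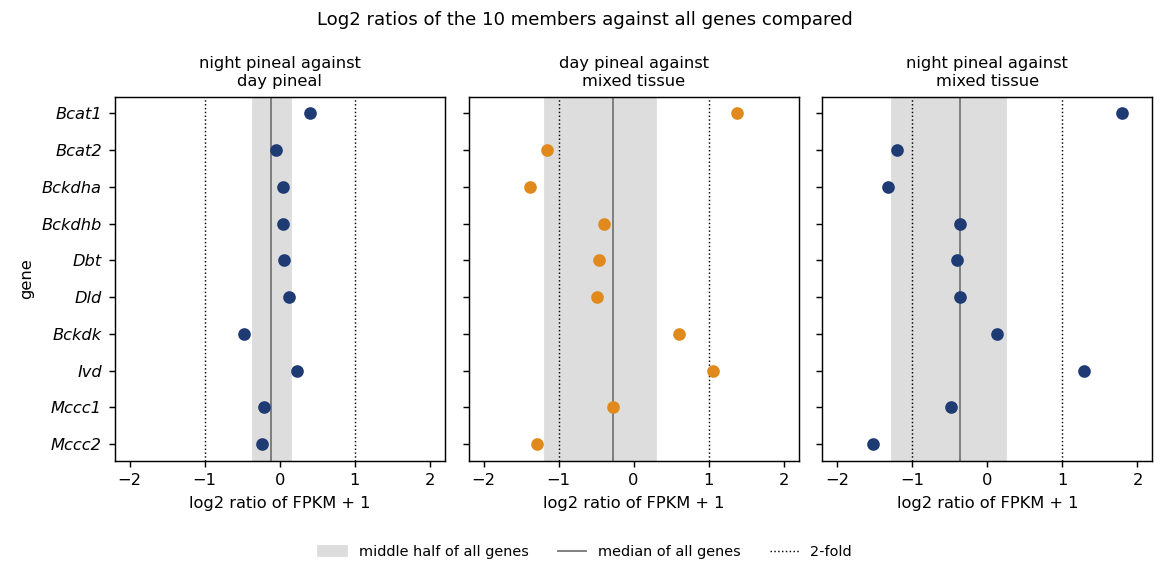
Log2 ratios of FPKM + 1 of the 10 genes in the 3 comparisons, with the interquartile range (grey band) and median (grey line) of all genes compared and dotted lines at 2-fold. By night against day all 10 lie between -0.47 and 0.41, and against the mixed tissues Bcat1 and Ivd lie above 2-fold while Bcat2, Bckdha and Mccc2 lie below it.

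The gland was next set beside the mixed tissues taken at midday, a pool in which the level of any single tissue is not known. By day 2 of the 10 genes were at least 2-fold higher, Bcat1 and Ivd, where 8.32% of 11934 genes were. Another 3 were at least 2-fold lower, Bcat2, Bckdha and Mccc2, where 28.9% of genes were, so that count is near the share of all genes. By night Bcat1 and Ivd were again higher and Bcat2, Bckdha and Mccc2 lower, beside 8.99% of 11951 genes higher and 31.2% lower. Both comparisons use the same mixed library, and the night one also differs in time of day. The median over the 10 genes was -0.43 by day and -0.38 by night, against -0.27 and -0.36 over all genes. With ratios centred on the all-gene median, all genes split into 1432 higher and 2763 lower by day in place of 993 and 3445, and into 1683 and 2800 by night in place of 1074 and 3724. So centred, Bcat2 came within 2-fold in both comparisons (log2 -0.88 by day and -0.84 by night), as did Bckdha by night (-0.97).

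The dehydrogenase complex has a decarboxylase made of Bckdha and Bckdhb, a transacylase core (Dbt) and the lipoamide dehydrogenase Dld, which other mitochondrial complexes also use. Bckdha (chr1:80837906-80866672) had 13.5 FPKM in night pineal, 13.0 in day pineal and 35.5 in the mixed tissues. Bckdhb (chr8:88997979-89191017) had 18.9 by night, 18.4 by day and 24.6 in the mixed tissues. The order of the decarboxylase partners differed between gland and mixed tissues: Bckdhb was at 1.40 times Bckdha by night and 1.41 by day, but at 0.694 times in the mixed tissues. Against the mixed tissues by day Bckdha was 2.72-fold lower (log2 -1.38), whereas Bckdhb was 1.34-fold lower (log2 -0.40), and their counting bounds, -1.76 to -1.14 and -0.71 to -0.13, do not overlap.

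Dbt (chr2:212759312-212788180) was the scarcest subunit, with 8.06 FPKM in night pineal, 7.67 in day pineal and 11.0 in the mixed tissues. Dld (chr6:49185188-49205894) had 34.4 by night, 31.4 by day and 44.5 in the mixed tissues. The level of Dld was about 4 times that of Dbt throughout, 4.27 by night, 4.10 by day and 4.06 in the mixed tissues. Dbt and Dld had day over mixed log2 ratios of -0.46 and -0.49, close to that of Bckdhb, so Bckdha was the subunit that stood apart. The reference lists a pseudogene of Dld and one of Bckdk, and how reads shared with them were counted is not stated in the labels.

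Bckdk (chr1:187189665-187194335) was higher in the gland than its target by either hour. It was at 2.22 times Bckdha by night and 3.22 times by day, against 0.771 times in the mixed tissues. Its level by day was 1.54-fold that of the mixed tissues (log2 0.60, bounds 0.39 to 0.85), and by night 1.10-fold (log2 0.13, bounds -0.16 to 0.42). Ppm1k, the phosphatase that reverses the kinase's action, had 4.83 FPKM in night pineal, 5.32 in day pineal and 10.7 in the mixed tissues. Kinase over phosphatase was therefore 6.20 by night, 7.91 by day and 2.55 in the mixed tissues. Slc25a44, the mitochondrial carrier of branched-chain amino acids, was within 2-fold throughout at 12.7, 12.9 and 10.5 FPKM in the same order.

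In the leucine branch, Ivd was above the mixed tissues and Mccc2, a subunit of the carboxylase that acts after it, was below them. Ivd (chr3:105374429-105394861) had 107 FPKM in night pineal, 91.5 in day pineal and 43.2 in the mixed tissues. It was the second most abundant member in both pineal libraries, and its log2 ratio against the mixed tissues was 1.29 by night and 1.07 by day. In the mixed tissues Dld, at 44.5 FPKM, was a little above it. Among all genes compared, 93.5% by night and 92.5% by day had a lower ratio than Ivd.

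Mccc1 (chr2:122416661-122469557), the biotin-carrying subunit, had 7.13 FPKM in night pineal, 8.42 in day pineal and 10.4 in the mixed tissues. Mccc2 (chr2:30961607-31032883), the other subunit, had 6.61 by night, 7.95 by day and 20.9 in the mixed tissues. The subunits were near equal in the gland, with Mccc2 at 0.927 times Mccc1 by night and 0.945 by day, but at 2.00 times in the mixed tissues. Mccc2 was 3.16-fold lower than in the mixed tissues by night (log2 -1.52) and 2.62-fold lower by day (log2 -1.29), and Mccc1 1.46-fold and 1.24-fold lower. By day the counting bounds of Mccc1, -0.76 to 0.13 on the log2 scale, include 0, and its log2 ratio of -0.28 was close to the all-gene median of -0.27. Ivd exceeded Mccc1 15.1-fold by night, 10.9-fold by day and 4.14-fold in the mixed tissues.

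**Figure D3:**
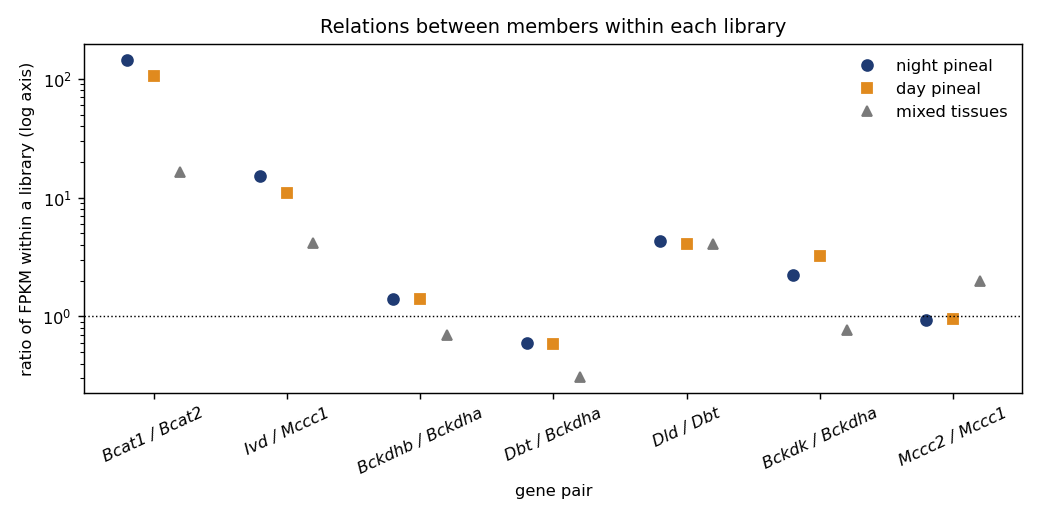
Ratio of FPKM between pairs of members within each library (log axis; dotted line at equal levels), for night pineal, day pineal and mixed tissues. Bcat1 over Bcat2 is 144, 105 and 16.6, Bckdhb over Bckdha lies above 1 in the gland and below it in the mixed tissues (1.40, 1.41 and 0.694), and Dld over Dbt stays near 4.

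Markers of cell types also differed in level between the libraries. Summed over 7 pinealocyte markers, FPKM was 9125 by night, 7707 by day and 340 in the mixed tissues, with Aanat, itself a night gene, contributing 762 by night and 5.34 by day. Tph1, at 4245 by night and 4665 by day, makes up much of that sum. The median night over day log2 ratio of the 7 was 0.70. Aanat (6.91), Crx and Otx2 (0.83 each) and Gngt1 (0.70) were above the 0.41 of Bcat1. Asmt (0.36), Gnb3 (-0.08) and Tph1 (-0.14) were below it. Astrocyte markers (4 of 5 in the table) summed to 29.7, 45.9 and 615 FPKM in the same order, and fibroblast markers (4 of 4) to 123, 170 and 275. Endothelial markers (3 of 4) summed to 13.5, 15.8 and 74.8, microglial markers (4 of 4) to 24.7, 30.8 and 46.7, and oligodendrocyte markers (4 of 4) to 8.15, 11.8 and 4412. By night against day 0 astrocyte markers were past 2-fold on the FPKM + 1 scale, beside 4.18% of all genes higher and 2.11% lower. In FPKM alone Aqp4 was 2.02-fold lower by night (4.52 against 9.13) and Gfap 1.98-fold (5.16 against 10.2). S100b and Slc1a3 were 1.37-fold and 1.17-fold lower. The part of cell makeup in the differences of the 10 genes was not tested.

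Around the 10 genes, 67 other symbols in 10 lists covered transport, later steps, glutamate enzymes, related complexes and regulators, of which 61 were in the table. By night against day 54 of 56 compared lay within 2-fold (median log2 -0.12), beside 93.7% of all genes. By day against the mixed tissues 1 of 60 was higher, 21 lower and 38 within 2-fold (median -0.59), and by night 4 were higher, 26 lower and 30 within (median -0.67). Among all genes the shares were 8.32% higher and 28.9% lower by day, and 8.99% higher and 31.2% lower by night.

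Slc7a5, the large neutral amino acid transporter that carries branched-chain amino acids and tryptophan, had 45.2 FPKM in night pineal, 22.4 in day pineal and 15.8 in the mixed tissues. Its night over day ratio was just under 2-fold on the FPKM + 1 scale (log2 0.98) and 2.02-fold in FPKM alone, and its partner chain Slc3a2 was at log2 0.19.

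Among 6 plasma membrane transporters of these amino acids, the 4 compared by night against day had a median log2 ratio of -0.03, and by day against the mixed tissues 0 of 6 were higher and 2 lower, Slc43a1 and Slc6a15. Of 8 glutamate enzymes in the table, 5 were at least 2-fold lower by day than in the mixed tissues. Both lists stand beside 8.32% of all genes higher and 28.9% lower by day. Glutamate dehydrogenase, Glud1, which can regenerate 2-oxoglutarate, had 24.7 FPKM in night pineal, 30.8 in day pineal and 109 in the mixed tissues. The aspartate aminotransferase Got1 was on the other side, with 195, 208 and 108 FPKM in the same order (day over mixed log2 0.94).

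The counts for later steps stand beside 28.9% of all genes at least 2-fold lower by day and an all-gene median of -0.27. Of 5 later leucine and ketone body genes, 0 were higher and 2 lower by day, among them Oxct1, which uses ketone bodies as fuel, with 21.6 FPKM by night, 15.5 by day and 155 in the mixed tissues. Of 8 isoleucine and valine genes in the table, 0 were higher and 3 lower, Aldh6a1 (log2 -2.16), Echs1 (-1.87) and Hsd17b10 (-1.14). Of 4 propionyl-CoA genes 1 was lower, Pccb (-1.08), a subunit of propionyl-CoA carboxylase, while its partner Pcca was at -0.05. Other acyl-CoA dehydrogenases, the family of Ivd, were listed with their electron acceptors but without Acadsb, counted above among the isoleucine and valine genes. This list had 0 of 8 higher and 4 lower by day. Acadl stood at 1.63 FPKM by night, 2.81 by day and 75.2 in the mixed tissues. The night over day median of the 8 was -0.42 and their highest ratio -0.06, all within 2-fold, where Ivd was at 0.23. Acadsb, at 0.27, lay on the side of Ivd. The contrast therefore holds for the list as drawn and not for every acyl-CoA dehydrogenase.

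Of 8 genes compared from the other complexes that use Dld, 0 were at least 2-fold apart by day, with a median log2 ratio of -0.17, and by night 1 was higher, Ogdh of the 2-oxoglutarate dehydrogenase (141 FPKM by night, 129 by day, 66.9 in the mixed tissues). Amt is listed at 0 in all 3 libraries. Regulators of the related pyruvate dehydrogenase complex had 1 of 7 higher by day, the phosphatase Pdp2 (log2 1.19), and 2 lower, Pdp1 (-1.72) and Pdk4 (-1.52). Biotin-linked enzymes other than the carboxylase of the leucine branch had 0 of 4 higher and 2 lower, Pc (-2.84) and Acacb (-1.54). These counts stand beside 8.32% of all genes higher and 28.9% lower by day, and 8.99% higher by night.

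**Figure D4:**
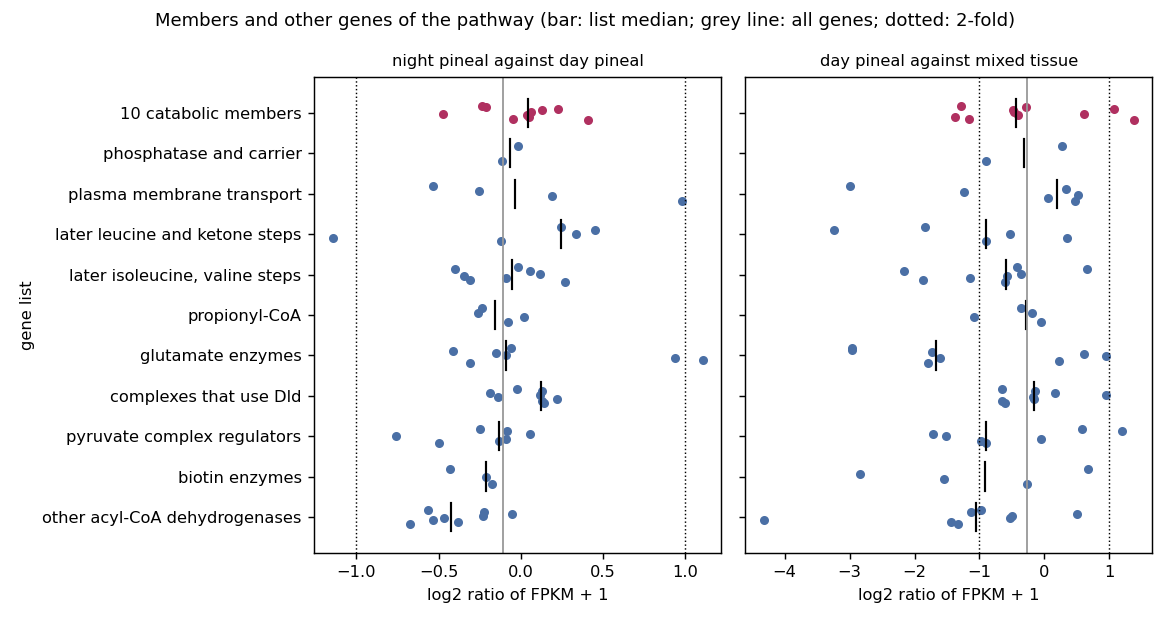
Log2 ratios of FPKM + 1 of the 10 genes (red) and of 10 lists of related genes (blue), by night against day and by day against the mixed tissues. Black bars are list medians, the grey line is the median of all genes and dotted lines mark 2-fold. By night against day 54 of the 56 related genes lie within 2-fold, beside 93.7% of all genes. By day against the mixed tissues the medians of glutamate enzymes (-1.67) and other acyl-CoA dehydrogenases (-1.05) lie lowest.

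The genes whose ratios were most like those of Bcat1 were sought among 6301 named genes with at least 5 FPKM by night, by distance in the plane of night over day and day over mixed log2 ratios. The nearest 5 were Ndufa12 (distance 0.04), a subunit of respiratory complex I, Hif1a (0.04), the hypoxia-inducible factor, Gtl3 (0.09), Mpped2 (0.09) and Edn3 (0.09), endothelin 3. Ndufa12 had 252 FPKM in night pineal, 194 in day pineal and 74.6 in the mixed tissues, and Hif1a had 113, 86.9 and 32.3 in the same order. Edn3 had 5.45 FPKM in night pineal, 4.11 in day pineal and 0.885 in the mixed tissues, so its nearness depends on the added 1 FPKM. This likeness rests on 2 ratios from 3 libraries.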

How the data were processed

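Per the labels, RNA was poly(A) selected, fragmented, reverse transcribed from random primers and sequenced as paired ends, 1 library per group. Per the file headers, the deposited values are FPKM computed by the authors. TopHat 1.3.1, Cufflinks 1.2.0 and the build rn4 are named in the submitters' processing notes, with options not given in the sources. FPKM scales to each library's total, so abundant transcripts lower the rest.

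The table of the series and the tables per sample were identical in 51267 of 51267 values. The 17089 entries were summed by symbol to 16629 genes and regions. Depth by night was estimated at 58.5% of that by day from the lowest values of 1307 receptor models of 800 to 1100 bp, and the night step rests on 3 of them. On 1 kb, 3 fragments amount to 0.558 FPKM by night, 0.326 by day and 0.315 in the mixed tissues. Ratios used a pseudocount of 1 FPKM, and called means at least 2-fold. Bounds on log2 ratios are exact binomial bounds (scipy 1.17.1) of the FPKM ratio.

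The members, the gene lists and the naming rule (all members, listed genes, and the 5 genes nearest Bcat1) were chosen with earlier results of these data known. Of 115 listed symbols, 107 were in the table. Protein sequences were not used here, and some listed genes are not reported here. Alternatives were another pseudocount, filter, centring and entry choice. Python 3.11.15, pandas 2.3.3 and matplotlib 3.10.9 were used.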

Additional observations from a re-analysis of the deposited data

How the results depend on the processing

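No paired analysis was possible because each group has 1 library. Each of 5 alternatives was applied to the 30 log2 ratios of the 10 genes. Of 150 values 137 lay within the counting bounds of the ratio as reported. The 13 outside were all among the 30 centred ratios, and 0 of the calls past 2-fold changed sign. Each member has 1 entry and more than 5 FPKM in every library. Changing the filter or taking the highest single entry therefore could not move a member's ratio, and those values were inside the bounds by construction. Other than under centring, the largest move of a member's ratio was 0.12. Centring on the median of all genes raises ratios by 0.11 (night over day), 0.27 (day over mixed) and 0.36 (night over mixed). It left 1 of the 10 genes at least 2-fold lower by night than in the mixed tissues, Mccc2, with Bcat2 at -0.84 and Bckdha at -0.97, and by day Bcat2 was at -0.88. It turned the sign of Bcat2 by night against day (0.06), and put Bckdhb and Dld at 0.00 by night against the mixed tissues. Over all genes it gave 1683 higher by night than in the mixed tissues. A pseudocount of 0.1 FPKM gave 518 genes at least 2-fold lower by night than by day, against 207, and 533 higher, against 411, and left the 10 genes within 2-fold. A filter at 5 FPKM, no filter and the highest single entry per symbol kept each count within 1.5 times. The low estimated depth of the night library limits what can be seen for Bcat2, Dbt, Mccc1 and Mccc2. Their night over day bounds, for a transcript of 1 kb, span more than 2-fold.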
